A study of Danio rerio with 13 samples.

Results

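The genes described here are the potassium channel genes of the zebrafish brain. They were chosen by name: every gene of the counts table whose zebrafish Ensembl symbol starts with kcn, further letters and a digit, in either case, and which reached a CPM (counts scaled to library size) of at least 1 in 3 or more of the 13 libraries. Library sizes were scaled with TMM factors. Such a name was carried by 126 of the 32105 genes counted, and 92 of these were kept. The kept genes comprised 41 of 51 voltage-gated pore subunits, 17 of 29 inward rectifiers, 12 of 21 two-pore channels, 8 of 9 calcium- and sodium-activated channels and 14 of 16 accessory subunits. Many symbols are written in capitals, as human names are, and a symbol carried by several genes is given with its Ensembl identifier. At the threshold, judged on the third-highest library, the kept genes with the lowest values were kcnk12l (1.101 CPM), KCNK13 (ENSDARG00000043557, 1.13 CPM) and KCNIP2 (1.14 CPM), and the nearest genes outside it were KCNJ8 (0.897 CPM), KCNK3 (ENSDARG00000043466, 0.861 CPM) and kcnn4 (0.810 CPM).

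Brains of 13 male AB zebrafish aged 3 months gave 1 RNA sequencing library each: 3 fish were homozygous for a mutant allele of tert, the gene of the telomerase reverse transcriptase (tert-/-), 5 were heterozygous (tert+/-) and 5 were wild type. The mutant line is tert hu3430, a nonsense allele, so that the transcript need not be absent. All fish shared strain, sex, age and tissue. Libraries are named by genotype and a number given in order of the sample records, which pairs no fish with another.

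A voltage-gated potassium channel opens when the membrane is depolarised and brings the neuron back to rest, and its 4 pore subunits may come from different genes of one family. Inward rectifiers pass potassium most easily near the resting potential, some of them under the control of G proteins or of ATP. Two-pore channels form the steady leak that sets the resting potential, calcium- and sodium-activated channels open after activity has let these ions in, and accessory subunits change how many pores reach the membrane and how they gate. Zebrafish carry additional copies of many of these genes from a genome duplication in the teleost lineage.

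Library totals ran between 22008289 and 32380953 counts, and mitochondrially encoded genes took 8.14% to 13.9% of them. The 10 neuronal marker genes summed to 7830 to 8630 CPM in tert-/- brains, 7760 to 9470 CPM in tert+/- brains and 7470 to 8250 CPM in wild-type brains. Photoreceptor genes, whose source in these libraries was not tested, summed to 14.5 to 21.8 CPM, 17.0 to 329 CPM and 17.6 to 722 CPM in the same order. All 20 tested had a fitted change below 0 in tert-/- against wild type, with 0 called at an edgeR adjusted p under 0.05. Their mean centred log2 CPM was −0.964 to −0.645 in tert-/- libraries. It was −0.528, −0.351 and −0.864 in wild type 2 to 4, but 1.288 and 2.796 in wild type 1 and 5. The filter on low counts favoured a lower level in tert-/- for genes kept through other genotypes, such as cngb3.1 (at most 0.161 CPM in tert-/-). The tert transcript was highest in mutants, at 8.05 ± 3.53 CPM in tert-/- (SD, n = 3), 5.70 ± 1.97 CPM in tert+/- (n = 5) and 2.53 ± 0.752 CPM in wild-type brains (n = 5), with a log2 fold change of 1.66 ± 0.34 (SE) for tert-/- against wild type (edgeR adjusted p = 0.573, DESeq2 adjusted p = 0.00629). Since a nonsense allele can be transcribed, this level does not check the labels. In whole-brain RNA fewer cells of a type and less RNA per cell cannot be told apart. Where copies are nearly identical, the counting may have left out their reads or assigned them to the wrong copy.

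Per kilobase of gene length, so that genes can be compared with each other, the 92 genes together reached 722.7 ± 98.7 CPM per kilobase in tert-/- brains (SD, n = 3), 704.4 ± 46.5 in tert+/- brains (n = 5) and 742.9 ± 27.5 in wild-type brains (n = 5). Voltage-gated pore subunits made up 30.6 ± 2.03% of this sum (SD over 13 libraries), and accessory subunits nearly the same share, 30.2 ± 2.42%, from 14 genes. Calcium- and sodium-activated channels held 18.1 ± 1.69% with 8 genes, inward rectifiers 16.0 ± 1.03% and two-pore channels 5.16 ± 0.403%. The voltage-gated and accessory shares did not differ beyond their spread, and the ranges of the next 2 classes overlapped, whereas the two-pore share, 4.60% to 5.87%, lay below the share of every other class in every library.

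By genotype the class sums overlapped in each class. Voltage-gated subunits summed to 222.9 ± 44.4 CPM per kilobase in tert-/-, 206 ± 22.6 in tert+/- and 236 ± 10.8 in wild-type brains. Inward rectifiers summed to 119 ± 20.3, 114 ± 10.5 and 116 ± 6.88 in that order of genotypes, and two-pore channels to 36.6 ± 4.34, 35.2 ± 4.47 and 40.02 ± 3.42. For calcium- and sodium-activated channels the sums were 121 ± 2.60, 135 ± 9.22 and 131 ± 11.4, and for accessory subunits 223 ± 38.3, 214 ± 26.7 and 219.8 ± 17.8. Division by length weighs on the order of classes: in CPM alone the calcium- and sodium-activated channels, which include the long KCNMA1, held 35.5% and the accessory subunits 16.9%.

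**Figure D1:**
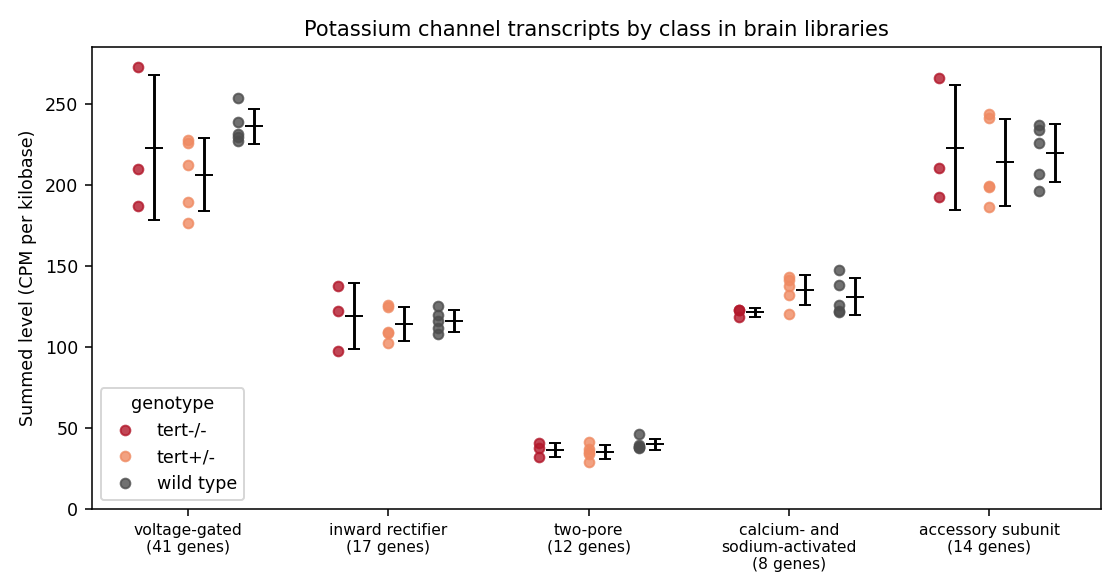
Summed level of the kept potassium channel genes of each class (CPM per kilobase), one point per library, with tert-/- (3 libraries), tert+/- (5) and wild type (5) from left to right in each class. Black bars give the mean and SD; the genotypes overlap in every class, and two-pore channels lie below the other classes in all 13 libraries.

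A small number of genes carried most of the signal. The single highest gene, kcnip1b, held 12.2% of the summed level, the 5 highest held 35.4%, the 10 highest 52.8% and the 20 highest 71.6%. Across the 92 genes the median level was 2.82 CPM per kilobase, with 19 genes above 10 and 18 below 1.

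Among voltage-gated genes the Kv3 family (kcnc), whose channels close quickly and let neurons fire at high rates, led with a summed level of 96.2 ± 20.3 CPM per kilobase in tert-/-, 82.2 ± 8.64 in tert+/- and 99.8 ± 2.95 in wild-type brains. KCNC1 (ENSDARG00000051852) stood at 46.7 ± 5.69 CPM per kilobase over the 13 libraries (SD), ahead of kcnc3a at 16.8 ± 6.10 and the second KCNC1 gene (ENSDARG00000032959) at 15.4 ± 2.06. KCNF1 (ENSDARG00000027285), a silent subunit that forms channels only together with other pores, stood at 16.2 ± 4.33, and KCND3, a Kv4 pore of the transient A-type current, at 13.0 ± 1.93. The ranges of mean ± SD of these last 4 genes overlapped, and their order within single libraries was not compared.

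Accessory genes of the Kv4 channels were more abundant than the Kv4 pores. The 7 kcnip genes, which encode the calcium-binding KChIP proteins, summed to 178.6 ± 22.6 CPM per kilobase, against 30.9 ± 5.57 for the 3 kcnd genes. kcnip1b stood at 88.4 ± 12.1, kcnip3a at 38.3 ± 6.12, KCNIP1 at 27.9 ± 5.37 and kcnip3b at 14.0 ± 7.20 CPM per kilobase. The level of KCNIP1 rests on the shortest gene model of all members (565 bases). Of the kcnab genes, which encode cytoplasmic beta subunits of Kv1 channels, kcnab1b was highest, at 15.1 ± 1.66.

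The calcium- and sodium-activated class was led by KCNMA1, the pore of the large-conductance BK channel, at 44.0 ± 5.68 CPM per kilobase, and by kcnn1a, a small-conductance SK channel, at 38.6 ± 2.17. A sodium-activated channel gene, KCNT1 (ENSDARG00000104868), followed at 18.8 ± 2.84, then kcnn3, another SK channel, at 11.8 ± 3.07 and the second KCNT1 gene (ENSDARG00000079484) at 9.78 ± 5.05. kcnn1a was the steadiest of all 92 genes, with an SD of 0.08 on the log2 CPM scale and a ratio of 1.17 between its highest and lowest library.

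Inward rectifiers were led by subunits of the G protein-gated GIRK channels, through which transmitters such as GABA and opioids quieten neurons. KCNJ3 (ENSDARG00000062217, GIRK1) stood at 31.5 ± 3.11 CPM per kilobase and KCNJ6 (GIRK2) at 31.0 ± 5.92, and these did not differ beyond their spread. kcnj19b followed at 16.5 ± 6.14, the second KCNJ3 gene (ENSDARG00000077165) at 6.30 ± 0.525, and kcnj11, the pore of the ATP-sensitive channel, at 5.80 ± 1.53. Both KCNJ10 genes, whose mammalian counterpart buffers potassium in glia, were low, at 2.4 and 1.68 CPM per kilobase.

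Two-pore genes were low throughout. KCNK15 stood at 7.69 ± 1.13 CPM per kilobase, KCNK1 at 7.15 ± 1.87, KCNK3 (ENSDARG00000052898), an acid-sensitive leak channel, at 5.21 ± 3.08, KCNK10 (ENSDARG00000062849) at 4.60 ± 0.781 and kcnk2b at 4.14 ± 0.867, the last pair being stretch-sensitive channels of the TREK type. The ranges of mean ± SD of neighbours in this order overlapped, and their order within single libraries was not compared.

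**Figure D2:**
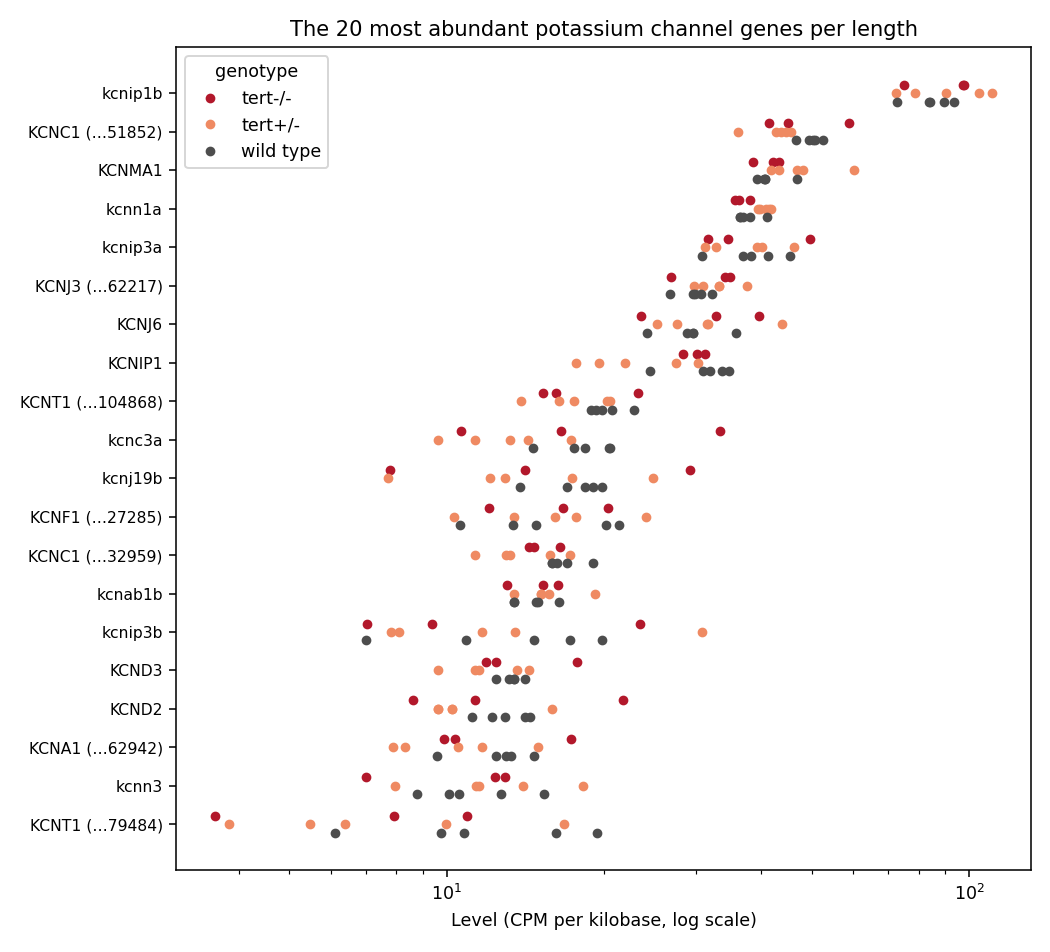
Levels of the 20 most abundant potassium channel genes (CPM per kilobase, log axis), one point per library, with tert-/- drawn above tert+/- and wild type in each row. The order from kcnip1b downwards is by the mean over 13 libraries, and the genotypes overlap in nearly all rows.

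Of the 34 genes not kept, 1 had no read in any library, a KCNJ1 gene (ENSDARG00000089060). The KCNV2 genes, silent subunits known from mammalian photoreceptors, were not kept either: KCNV2 (ENSDARG00000076644) reached 2.24 CPM in wild type 5 and 1.65 CPM in tert+/- 3 and lay between 0.234 and 0.610 CPM elsewhere, and these are the 2 libraries with the highest photoreceptor levels. Wild type 1, with the next highest photoreceptor level, had only 0.258 CPM.

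Among the kept genes 25 pairs of copies were defined by the same symbol or by names that differ only in a final a or b. Pairs with a copy that was not kept are left out, such as kcnh6a (13.2 CPM) and kcnh6b (0.185 CPM). The keep rule thus limits how unequal a pair can be here. In 20 of the 25 the same copy was higher in all 13 libraries, and in 22 the copies differed more than 2-fold on average, with a median of 3.51-fold. KCNF1 was the most unequal of the 25 pairs, with its higher copy (ENSDARG00000027285) 45.9-fold above the lower (ENSDARG00000027940) and log2 ratios between 4.81 and 5.90 in single libraries. kcnn1a exceeded kcnn1b 16.8-fold (log2 ratio 4.07 ± 0.34, SD). The KCNJ3 pair had the steadiest ratio, 2.32 ± 0.13 on the log2 scale. By contrast kcnj12b and kcnj12a, strong inward rectifiers, differed only 1.43-fold, the KCNJ10 pair 1.44-fold, and KCNB2 and kcnb2a 1.69-fold, and in these 3 pairs the higher copy was higher in 11, 9 and 11 libraries.

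**Figure D3:**
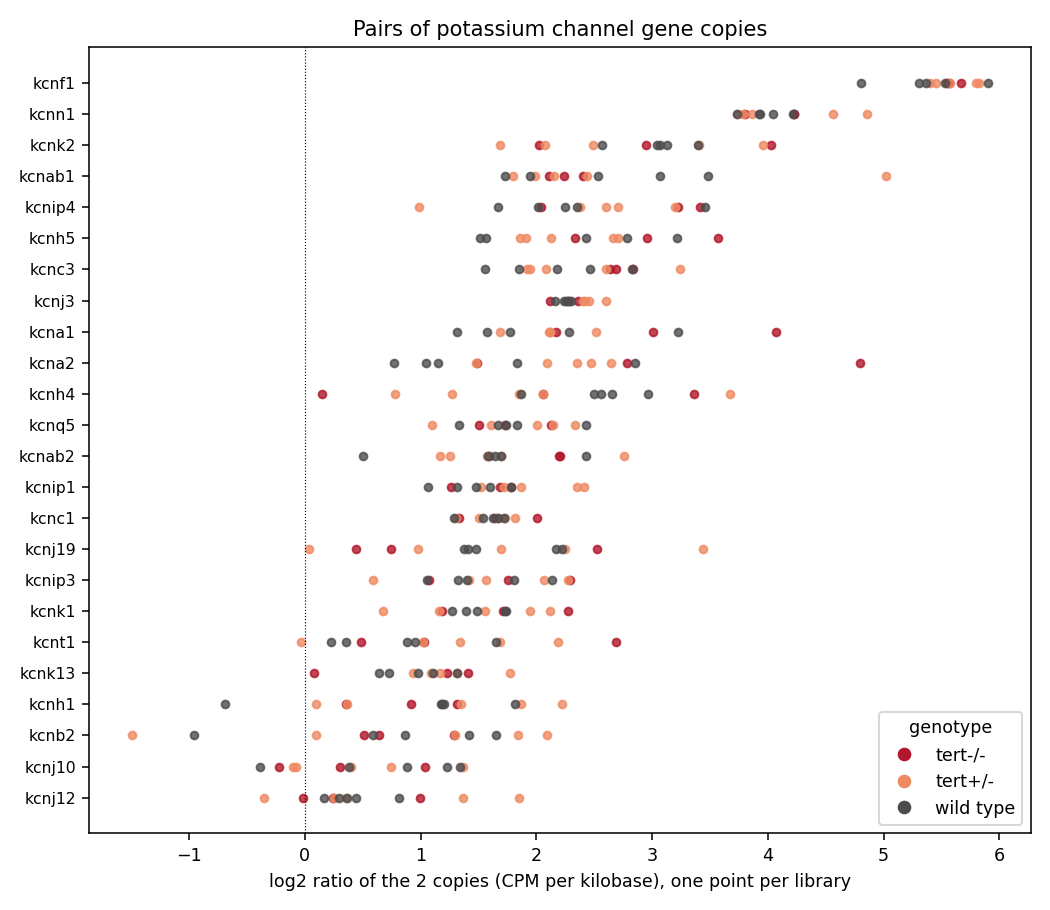
Ratio of the higher to the lower copy in 24 of the 25 pairs of potassium channel genes (log2, from CPM per kilobase), one point per library coloured by genotype. The KCNF1 pair lies near 5.5 and the kcnn1 pair near 4, while 5 pairs have libraries at or below 0, where the copies change places.

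In tert-/- against wild-type brains the question is whether these genes change in young adults that lack functional telomerase. None of the 92 genes passed the test. With edgeR's quasi-likelihood test 0 were called at an adjusted p under 0.05 (lowest adjusted p = 1.0), where 0.0% of all 20064 genes tested were called, and DESeq2 called 0 as well, where it called 0.0593% of the genes it tested. Small differences leaned to lower levels in tert-/-: the fitted change was negative in 64 of 92 genes (69.6%), where 49.8% of all genes were, with a median log2 fold change of −0.124 against 0.0 for all genes. An unadjusted p under 0.05 was reached by 2 members (2.17%), where 2.14% of all genes reached it. With DESeq2 it was reached by 4 members, and the share of all genes was not counted there. By class, 31 of 41 voltage-gated, 11 of 17 inward rectifier, 8 of 12 two-pore and 7 of 8 calcium- and sodium-activated genes were on the lower side, and 7 of 14 accessory genes.

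The lowest p among lower genes belonged to a voltage-gated pore. KCNH5 (ENSDARG00000043220), an ether-a-go-go channel, had 0.589, 0.740 and 0.547 CPM in tert-/- brains, against 0.772, 0.597, 1.97, 1.05 and 1.85 CPM in wild-type brains (log2 fold change −1.0 ± 0.43, SE, unadjusted p = 0.0374, edgeR adjusted p = 1.0). The groups overlapped, as wild type 2 lay within the range of the tert-/- libraries. No tert-/- library reached 1 CPM, so this gene was kept only through tert+/- and wild-type libraries. The keep rule itself therefore favoured a lower level in tert-/-. On the higher side the lowest p values were those of KCNE4, a small accessory subunit (0.33 ± 0.19), KCNIP2 (0.53 ± 0.44) and KCNMB2 (ENSDARG00000001712), a BK beta subunit (0.34 ± 0.31). These 3 values moved with single libraries: KCNE4 stood at 0.544 without tert-/- 1 and 0.204 without tert-/- 3, KCNIP2 at 0.165 without tert-/- 1, and KCNMB2 at 0.181 without tert-/- 2 and 0.551 without wild type 3. The only member whose groups did not overlap was kcnj12b, with 5.24, 5.50 and 5.67 CPM in tert-/-, against 7.85, 5.79, 7.35, 6.53 and 7.64 CPM in wild-type brains (−0.37 ± 0.29) and a narrow gap between them. That is 1 lower gene of 92, where 1.02% of all genes had groups that did not overlap in this direction, and 0 higher genes, where 1.28% did.

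The lean to lower levels rested in part on which fish were included. Without tert-/- 1 the median was −0.215 and 14 members had an unadjusted p under 0.05, where 5.68% of all genes did, without tert-/- 2 the median was −0.046 and 0 members had such a p (1.99% of all genes), and without tert-/- 3 such a p was reached by 0 members (2.39% of all genes). Without wild type 3 the median was −0.072.

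For tert+/- against wild-type brains, the question is that of losing a single allele. The wild-type libraries are those of the comparison above, so the results of both comparisons are not independent. Here too edgeR called 0 members (lowest adjusted p = 0.602) and 0.0% of all genes, and DESeq2 called 0 members, where it called 0.12% of the genes it tested. The fitted change was negative in 59 of 92 genes (64.1%, against 50.6% of all genes), with a median of −0.154 against −0.003 for all genes, and of −0.072 without tert+/- 1. Of the members, 5 had an unadjusted p under 0.05 with edgeR, all lower (5.43%), where 7.74% of all genes reached it in either direction, 3.63% on the lower side and 4.11% on the higher side. With DESeq2 it was reached by 7 members, and the share of all genes was not counted there.

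Of the 5 lower members found with edgeR, KCNC1 (ENSDARG00000051852) had 101.5, 94.7, 80.2, 99.1 and 97.1 CPM in tert+/- brains, against 103.5, 112.8, 109.5, 116.5 and 111.6 CPM in wild-type brains (log2 fold change −0.23 ± 0.09, unadjusted p = 0.0271, edgeR adjusted p = 0.604). KCNG2, a silent subunit, had 11.96, 11.1, 9.34, 10.4 and 12.5 CPM in tert+/-, against 13.6, 14.1, 13.2, 13.8 and 13.4 CPM in wild-type brains (−0.30 ± 0.10, unadjusted p = 0.0110, edgeR adjusted p = 0.602). In both genes every tert+/- library lay below every wild-type library, and with these 2 genes the members stand beside 0.792% of all genes whose groups were separate in this direction. KCNIP1 had 11.1, 15.5, 10.01, 17.1 and 12.4 CPM in tert+/-, against 13.8, 18.0, 19.0, 17.4 and 19.6 CPM in wild-type brains (−0.41 ± 0.15, unadjusted p = 0.0139), with overlap. The other lower members with an unadjusted p under 0.05 were the second KCNC1 gene (ENSDARG00000032959, −0.26 ± 0.11) and KCNV1, a silent subunit (−0.44 ± 0.19), and in both the groups overlapped. On the higher side KCNE4 had 3.09, 2.97, 2.67, 2.64 and 2.79 CPM in tert+/-, against 1.89, 2.001, 2.26, 2.55 and 2.56 CPM in wild-type brains (0.33 ± 0.17, unadjusted p = 0.0707), and was the 1 member with separate groups in this direction, where 0.967% of all genes were. KCNMA1 (0.20 ± 0.09, unadjusted p = 0.0539) had the lowest p on this side and KCNS3 (ENSDARG00000006891, 0.49 ± 0.26), another silent subunit, the next after KCNE4, both with overlapping groups. Single libraries moved both values, to 0.111 for KCNMA1 without tert+/- 1 and to 0.32 for KCNS3 without tert+/- 4.

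The comparison of tert-/- with tert+/- brains shares its libraries with the others. edgeR called 0 members (lowest adjusted p = 0.975) and 0.0% of all genes, DESeq2 called 0 members and 0.0723% of the genes it tested, and 50 of 92 genes were on the lower side (54.3%, against 50.6% of all genes), with a median of −0.036 that was 0.036 without tert-/- 2 and 0.049 without tert+/- 5. Of the members, 3 had an unadjusted p under 0.05 (3.26%), where 4.62% of all genes reached it, 2.43% on the lower and 2.19% on the higher side. kcnt2a, a sodium-activated channel and the lowest member per length, had 0.899, 2.06 and 1.02 CPM in tert-/-, against 0.895, 0.578, 0.178, 0.352 and 0.728 CPM in tert+/- brains (1.26 ± 0.46, unadjusted p = 0.0167, edgeR adjusted p = 0.975). kcnn1a had 224.8, 239.9 and 229 CPM, against 263, 250.6, 261, 257.4 and 249 CPM (−0.16 ± 0.06, unadjusted p = 0.0265, edgeR adjusted p = 0.975), and KCNH5 (ENSDARG00000043220) had 0.589, 0.740 and 0.547 CPM, against 0.814, 1.43, 0.845, 1.89 and 1.58 CPM in the same groups (−1.07 ± 0.43, unadjusted p = 0.0283). All 3 had groups that did not overlap, kcnt2a only narrowly and on as few as 4 reads in a library, as had 1.24% of all genes on the higher side and 1.07% on the lower side. KCNH5 reached 1 CPM in no tert-/- library and kcnt2a in no tert+/- library. Both were thus kept only through libraries of the other genotypes, and the keep rule favoured these 2 differences. kcnc3a (0.61 ± 0.29) and KCNIP1 (0.35 ± 0.17) were next on the higher side and KCNMA1 (−0.22 ± 0.11) on the lower. kcnc3a had 83.4 CPM in tert-/- 1, against 26.6 and 41.4 CPM in the other tert-/- libraries, and its change was 0.045 without tert-/- 1. That of kcnt2a was 0.793 without tert-/- 2, and that of KCNMA1 −0.135 without tert+/- 1.

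**Figure D4:**
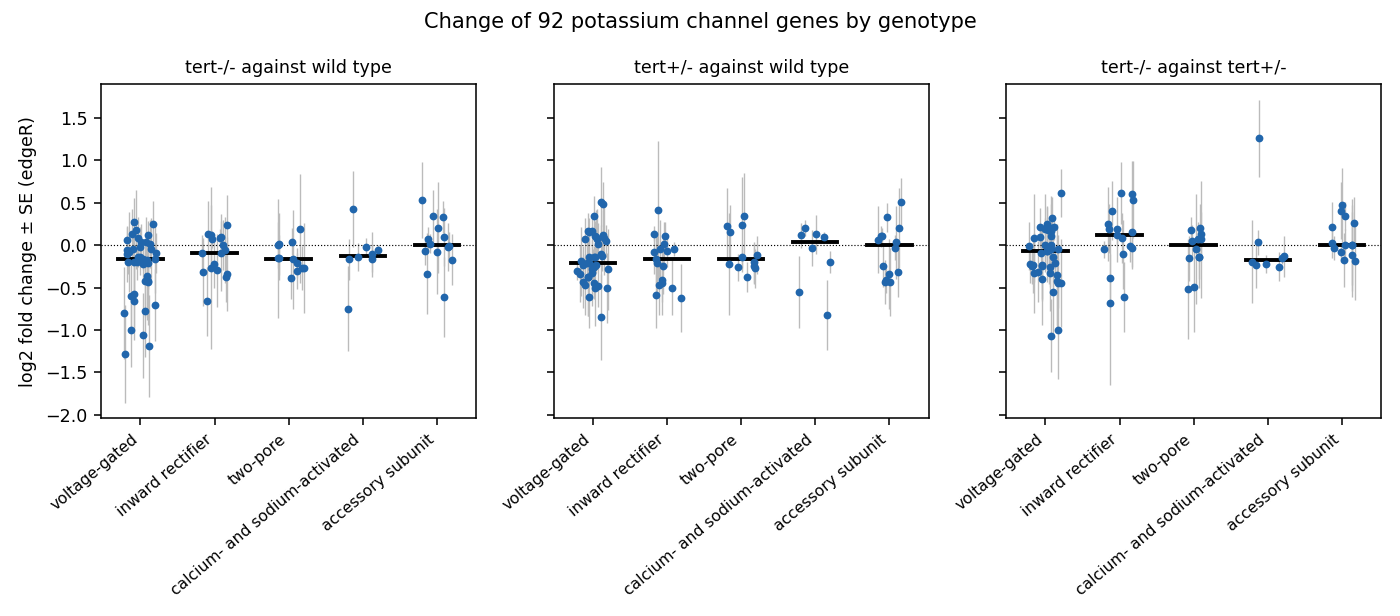
Log2 fold change of each of the 92 potassium channel genes by class in the 3 comparisons, with its SE (grey) and the class median (black line), from edgeR. Points lie on both sides of 0 in each class; the voltage-gated medians are −0.168, −0.206 and −0.075 from left to right, and 0 genes were called.

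Variation between fish was wide in several members. Over the 13 libraries the median SD of log2 CPM was 0.421 among members and 0.283 among all genes tested, 16 members had an SD under 0.25 and 11 an SD over 0.75. KCNJ13, known from the choroid plexus and pigment epithelium of mammals, varied most (SD 1.58), with 1.09, 8.20 and 5.90 CPM in tert-/-, 9.72, 0.964, 5.78, 6.17 and 17.7 CPM in tert+/-, and 8.33, 0.948, 9.07, 11.1 and 0.630 CPM in wild-type brains. It was low in 1 tert-/-, 1 tert+/- and 2 wild-type fish. Next came KCNK3 (ENSDARG00000052898, SD 1.13), a KCNA2 gene (ENSDARG00000102064, 1.06), KCNK5 (ENSDARG00000012390, 0.98) and KCNAB1 (0.89), the last with 1.098 CPM in tert+/- 1 and 3.16 to 10.5 CPM in the other libraries.

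Part of this variation ran with genes of a brain region. A list of 13 cerebellar genes, among them zic1, ca8, pvalb7 and cbln1, was written after such genes had been seen to vary, and its level (mean centred log2 CPM) was 0.95, −1.26 and 0.15 in tert-/- 1 to 3, 0.96, −0.22, 0.19, −1.91 and −0.16 in tert+/- 1 to 5 and −0.004 to 0.435 in wild-type libraries. Genes of the list did not all run together. In tert-/- 1, tert+/- 1, tert-/- 2 and tert+/- 4, ZIC1 had 1149, 1163, 91.6 and 59.7 CPM. CBLN1 ran the other way, with 78.6, 80.6, 129.3 and 105.4 CPM in the same libraries. With genotype in the edgeR model, the slope on the list level was called for 5 of 92 members (5.43%), where it was called for 719 of 20064 genes (3.58%). All 5 were positive, although 34 of the 92 slopes were. As the share called was not far from that of all genes, the genes are described singly.

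KCNK3 (ENSDARG00000052898) had the steepest slope, 1.4 ± 0.15 per unit of log2 level (SE), or 2.63-fold per unit (edgeR adjusted p = 0.000240). It had 13.3, 2.12 and 8.91 CPM in tert-/-, 18.6, 5.09, 6.85, 0.925 and 7.28 CPM in tert+/-, and 8.41, 5.69, 10.6, 14.2 and 6.02 CPM in wild-type brains, so that tert-/- 2 and tert+/- 4, the libraries with the lowest cerebellar level, also had the least KCNK3. KCNH4 (ENSDARG00000061990), an ELK-type voltage-gated channel, had 133, 22.2 and 70.1 CPM in tert-/-, 116, 62.7, 65.5, 27.9 and 75.5 CPM in tert+/-, and 88.9, 72.5, 88.1, 89.6 and 55.9 CPM in wild-type brains (slope 0.87 ± 0.09, edgeR adjusted p = 0.000302). kcnj19b had 70.8, 18.9 and 34.2 CPM in tert-/-, 60.0, 31.2, 29.3, 18.7 and 42.1 CPM in tert+/-, and 48.1, 46.1, 41.1, 44.5 and 33.4 CPM in wild-type brains (0.66 ± 0.09, edgeR adjusted p = 0.00174). The same 2 libraries were lowest in all 3 genes. These 3 slopes were called without each library in turn, and also without tert-/- 2 and tert+/- 4 together, where they were 1.31 ± 0.29, 0.85 ± 0.16 and 0.83 ± 0.19.

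KCNJ6 (0.28 ± 0.06, edgeR adjusted p = 0.0249) and KCNH8 (0.56 ± 0.13, edgeR adjusted p = 0.0378) had called slopes that depended on single libraries. KCNJ6 lost its call without tert+/- 1 (slope 0.25), tert-/- 1 (0.26) or tert-/- 2 (0.26), and KCNH8 without 9 of the 13 libraries in turn, with slopes between 0.43 and 0.65. Without tert-/- 2 and tert+/- 4 together neither was called (edgeR adjusted p = 0.0845 and 0.386).

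Leaving out tert-/- 2 and tert+/- 4 together, a setting added after seeing the data, left a narrower range of cerebellar levels whose upper end was set by tert-/- 1 and tert+/- 1. There 14 members were called (15.2%), where 5.58% of all genes were, 7 with a positive and 7 with a negative slope, and 3 of them were also called over all libraries. Besides KCNK3, KCNH4 and kcnj19b, the positive ones were the Kv4 pore KCND2 (0.73 ± 0.13) and 3 KChIP genes, kcnip3b (1.71 ± 0.28), kcnip3a (0.56 ± 0.11) and kcnip1b (0.44 ± 0.08). Over all 13 libraries these 4 slopes were 0.31 ± 0.09, 0.61 ± 0.18, 0.15 ± 0.08 and −0.04 ± 0.07, none of them called, and that of kcnip1b had the other sign. The negative ones were the Kv3 genes KCNC2 (−0.52 ± 0.10) and kcnc4 (−1.44 ± 0.36), the leak channels KCNK9 (−0.93 ± 0.22), KCNK13 (ENSDARG00000008212, −1.33 ± 0.27) and KCNK2 (−1.91 ± 0.41), and KCNAB1 (−2.14 ± 0.49). The second KCNH4 gene (ENSDARG00000062565) was also negative (−0.97 ± 0.20), so that the KCNH4 copies had slopes of opposite sign in these 11 libraries. KCNAB1 had 1.098 CPM in tert+/- 1 but 5.83 CPM in tert-/- 1, at cerebellar levels of 0.956 and 0.955. The omission of single libraries was not run within these 11 libraries. Over all 13 libraries the 7 negative slopes were closer to 0 and none was called: −0.167 ± 0.065 (KCNC2), −0.237 ± 0.236 (kcnc4), −0.204 ± 0.14 (KCNK9), −0.385 ± 0.181 (KCNK13), −0.674 ± 0.234 (KCNK2), −0.559 ± 0.282 (KCNAB1) and −0.242 ± 0.141 (the second KCNH4 gene).

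For a list of 11 telencephalic genes, such as foxg1a, tbr1b and eomesa, 0 of 92 members were called, where 0.359% of all genes were, the lowest being KCNF1 (ENSDARG00000027285, 0.31 ± 0.06, edgeR adjusted p = 0.0788). Genes of this list did not all run together either. The list level was −1.34 in tert-/- 1 and 1.75 in tert+/- 5. There EOMES (ENSDARG00000006640) had 22.7 and 171 CPM, but the other EOMES gene (ENSDARG00000104243) had 38.3 and 7.81 CPM. Among the 11 libraries left without tert-/- 2 and tert+/- 4, the lowest telencephalic levels were those of tert-/- 1 (−1.34) and tert+/- 1 (−0.922). These libraries also had the highest cerebellar levels. Whether the slopes in those 11 libraries followed the cerebellar or the telencephalic level was not tested.

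**Figure D5:**
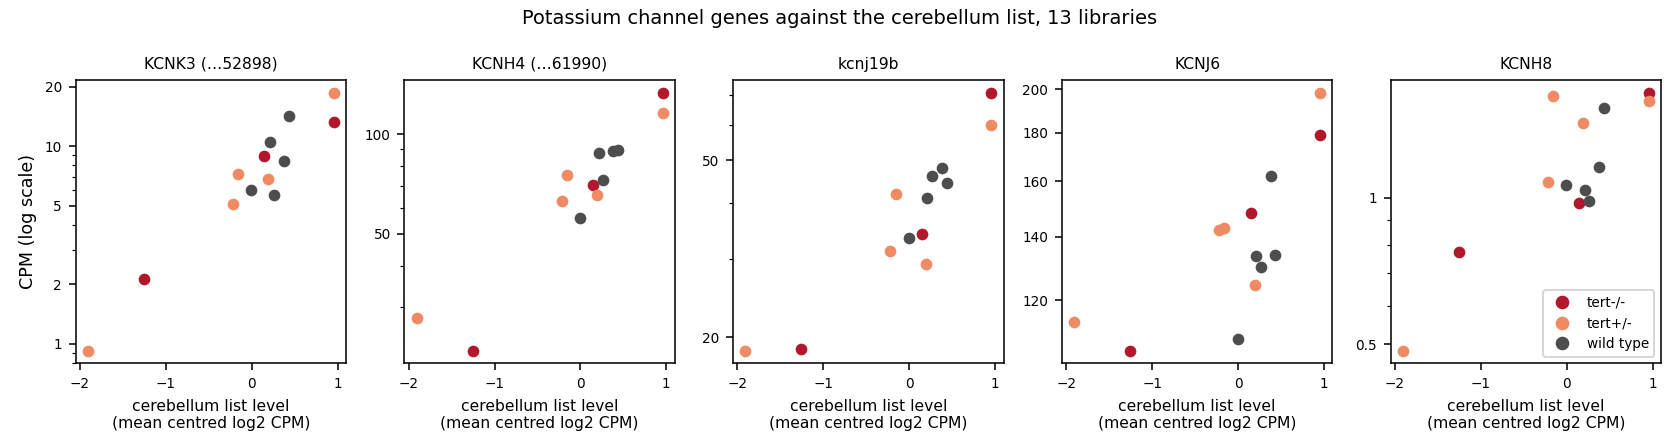
CPM (log axis) of the 5 potassium channel genes with a called slope against the level of the cerebellar gene list (mean centred log2 CPM), one point per library coloured by genotype. In KCNK3, KCNH4 and kcnj19b the 2 libraries at −1.26 (tert-/- 2) and −1.91 (tert+/- 4) are the lowest and those near 0.95 are among the highest.

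With the cerebellar or telencephalic level as a covariate the genotype comparisons again called 0 members. The share of all genes called was not counted in these fits, so the result says nothing particular to potassium channel genes.

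Of other ion transport genes, edgeR likewise called 0 in each genotype comparison. In tert-/- against wild-type brains 5 of 6 voltage-gated sodium channel genes (median −0.22), 15 of 18 voltage-gated calcium channel genes (median −0.231) and 5 of 5 hyperpolarization-activated HCN channel genes (median −0.127) were on the lower side, and 7 of 9 cation-chloride cotransporter genes (median −0.034). The sodium-potassium pump genes had 5 of 15 on the lower side (median 0.046) and the sulfonylurea receptor genes, partners of kcnj11, 0 of 3 (median 0.042). Both Kv4 partner genes were on the lower side (median −0.021). In tert+/- against wild-type brains 12 of 18 calcium channel genes and 5 of 6 sodium channel genes were on the lower side, with medians of −0.102 and −0.18, as were 5 of 5 HCN channel genes (median −0.086). Of the other lists, 4 of 9 cotransporter genes (median 0.015), 5 of 15 pump genes (median 0.037), 1 of 3 sulfonylurea receptor genes (median 0.187) and 1 of 2 Kv4 partner genes (median −0.093) were below 0. The lowest p among these lists in tert-/- against wild type belonged to cacna1ib, a low-voltage-activated calcium channel, with a log2 fold change of −0.89 ± 0.29.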

How the data were processed

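Per the labels, the authors demultiplexed reads with bcl2fastq 1.8.4, used STAR 2.4.1d for alignment (zebrafish build GRCz10) and took gene counts from featureCounts 1.4.6-p4. The library kit was TruSeq RNA version 2, starting from total RNA. The annotation release and the strand setting are not given in the sources used here, so overlapping and antisense genes may share or lose reads. The deposited counts are raw. The deposited RPKM values were made with the library totals applied down the table rather than across it: over 198488 values of 16787 genes, lengths computed with totals repeated down lay within 0.2% of the gene's median in 100% of cases, and in 8.24% with own totals. They served only to recover gene lengths.

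All 13 libraries were fitted with edgeR 4.0.16 (R 4.3.3), with TMM factors, filterByExpr at a minimum count of 10 (20064 genes) and 2-sided quasi-likelihood F tests, and p-values were adjusted by Benjamini-Hochberg over all genes and called under 0.05. All 92 members passed this filter. Slopes on regional levels used the same fit with genotype as a term. DESeq2 1.42.0, other filters and scalings, and the omission of single libraries were alternatives. The members, lists and tests were chosen with earlier results of these data known, and the regional lists after seeing the data. Named genes were the 3 lowest p values per direction and comparison, the 5 highest per class, the 6 most variable, the extreme pairs and those at the threshold; others were chosen after their values were seen. Some genes that these rules name are not reported here. The edgeR fit was tested on simulated data for tert-/- against wild type, with changes placed only in genes of higher counts. This does not cover low genes or the slopes. Separate fish are separate replicates, and the tests set each difference or slope against the spread between fish.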

Additional observations from a re-analysis of the deposited data

Results flagged for a closer look

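In 76 groups of 5 libraries (38 named genes in tert+/- and wild type), 4 held a library far from the others of its genotype, and chance alone sets apart about 5% of such groups. As these genes were chosen in part for their spread or low p in the same libraries, that share is not a fair reference for them. KCNIP2 had 1.94 CPM in tert+/- 4, against 0.534 to 0.732 CPM in the other tert+/- libraries. KCNMB2 (ENSDARG00000001712) had 2.63 CPM in tert+/- 3, against 1.18 to 1.45 CPM in the others. kcnip3b had 52.3 CPM in tert+/- 1, against 13.3 to 23.0 CPM in the others. KCNMA1 had 411.8 CPM in wild type 1, against 345 to 357 CPM in the other wild-type libraries. The cause was not tested in any of them.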

How the results depend on the processing

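In the 3 genotype comparisons 0 members were called by edgeR under every alternative run, including the omission of each library, and the genotype differences named for their lowest p kept their direction (this was not run for kcnj12b, KCNV1 and the second KCNC1 gene). Under these edgeR alternatives the share of all genes called was not counted. Leave-one-out medians ran between −0.215 and −0.046 for tert-/- against wild type, −0.214 and −0.072 for tert+/- against wild type and −0.117 and 0.049 for tert-/- against tert+/-, and members with an unadjusted p under 0.05 numbered 0 to 14, 3 to 9 and 2 to 8. In tert-/- against wild type, 1.99% to 5.68% of all genes had such a p when a tert-/- library was left out. For the other omissions the share of all genes was not counted. In CPM without division by length the class shares were 27.3% (voltage-gated), 17.2% (inward rectifier), 3.1% (two-pore), 35.5% (calcium- and sodium-activated) and 16.9% (accessory). Members called on the cerebellar level numbered 3 to 8 without 1 library and 14 without tert-/- 2 and tert+/- 4 together (5.58% of all genes), and 0 to 1 on the telencephalic level without 1 library. Without 1 library the share of all genes called on these levels was not counted. With a minimum of 0.5 or 2 CPM, 99 or 81 genes would be kept. With the run of numbers in the sample titles as a covariate the medians were −0.16, −0.189 and −0.015. No paired analysis was possible because these numbers differ for every fish and pair none across genotypes. The number of tert-/- fish (3) and, in low genes, few reads (as few as 4 for kcnt2a in a library) limit what could be detected.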
